A study of Mus musculus with 24 samples.

Results

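The genes described here are 41 very long neuronal genes, whose level in the frontal cortex of mice was read in 24 libraries. They were taken from a list of named genes known for very long introns, the class of gene that is known to need the RNA-binding protein TDP-43 to keep its level. The rule that names them uses no measured value, although the list was drawn up with earlier results of these data known. The deposited files hold transcripts of 52352 mouse genes, 18239 of which had enough reads to be tested, and all 41 members were among the tested genes. In the annotation (GENCODE M21, GRCm38) the members spanned 451 to 2271 kb of genome, with a median of 1135 kb against 20.3 kb for all tested genes. The longest intron of a member ran from 107 to 1222 kb, with a median of 451 kb against 7.56 kb. Ptprd (chromosome 4, 75941238 to 78211961) had the longest span and Lsamp (chromosome 16, 39984361 to 42181679) the longest intron. Cadps (chromosome 14, 12372563 to 12823079) was the shortest, and the other 40 spanned 500 kb or more.

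TDP-43, the product of Tardbp in mice and TARDBP in humans, binds UG-rich RNA, much of it inside long introns, and holds its own level steady by acting on its own transcript. When TDP-43 is depleted from the mouse brain, genes with very long introns that carry many of its binding sites are known to lose RNA. Many of these genes build synapses: neurexins and neuroligins join the sending and the receiving side of the synapse, and the IgLON proteins and catenins hold neurites together. Progranulin, the product of Grn, is a secreted and lysosomal glycoprotein, and loss of a working copy causes a form of frontotemporal dementia with TDP-43 deposits.

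The mice came from a cross of Grn+/- mice with mice that carry hTDP, a human TDP-43 transgene, and the series is about how progranulin loss and TDP-43 excess act on each other. Brains were flash frozen and the frontal cortex dissected after thawing. The 4 groups were Grn+/+:hTDP- (9.44 to 10.79 months old), Grn+/+:hTDP+ (9.44 to 10.07 months), Grn+/-:hTDP- (8.19 to 10.79 months) and Grn+/-:hTDP+ (9.44 to 10.07 months), with 6 mice each, 3 of each sex. The labels call them littermates, but ages differed: 4 Grn+/-:hTDP- mice were of ages found in no other group. The labels used here give neither the promoter that drives hTDP nor the strain. The design adds TDP-43 and does not remove it, so it does not test the loss for which this class of gene is known. RNA was poly-A selected, fragmented and primed with random hexamers. Libraries held 61445842 to 100859149 estimated reads. Mouse Tardbp stood at 146 ± 2.78 and 144 ± 4.73 CPM (counts of the gene scaled to the library's total, mean ± SD, n = 6) in the nontransgenic Grn+/+ and Grn+/- groups and at 103 ± 6.93 and 99.7 ± 9.21 CPM in the transgenic ones. Grn stood at 51.0 ± 7.34 and 47.9 ± 8.10 CPM in the Grn+/+ groups without and with hTDP and at 25.9 ± 6.23 and 26.7 ± 5.29 CPM in the Grn+/- groups. Human TARDBP reads were 0 to 2 per library without hTDP and 4328 to 8162 with it. Neuronal markers were present in every library: the 8 excitatory neuron markers summed to 2570 to 3220 TPM (a share of all transcripts, corrected for length) and none of them was at 0.

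A pair of transgenic libraries stood apart from the rest. The Grn+/+:hTDP+ library of replicate 2 listed 40188 transcripts above 0, against 65994 to 69846 in the others, and put 242 of the members' 407 transcripts at 0, against 134 to 163. The Grn+/-:hTDP+ library of replicate 1 had the lowest mean level of the members, −0.27 on the log2 scale against a mean of 0 for nontransgenic Grn+/+ mice, while the next lowest library was at −0.14. It also had the largest share of reads in transcripts annotated as retained intron, 2.71% against 1.64% to 2.22%. Some results are given with and without these libraries, and a value given once includes both. P-values set a group difference against the spread between these mice, estimated over all 24 libraries, and age was not in the main model.

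Most members were well expressed. Their mean TPM had a median of 36.5 over the 41, against 10.4 over all tested genes, and 33 members were above 10 TPM. The IgLON protein gene Ntm, for a cell-surface adhesion protein of neurons, was highest at 187 ± 12.5 TPM (SD over 24 libraries). It was followed by Fgf12, for an intracellular partner of sodium channels (165 ± 13.9), Rbfox1, for a neuronal splicing factor (144 ± 22.1), and Dlg2, for a postsynaptic scaffold of the MAGUK family (123 ± 9.40). Each of these lay within the summed SDs of its neighbour in this order. The lowest were Csmd3, for a large complement-like membrane protein (4.29 ± 0.567), Il1rapl1, a postsynaptic adhesion protein gene tied to intellectual disability (3.68 ± 0.366), the contactin gene Cntn5 (2.38 ± 0.426) and Ctnna3, for alpha-T-catenin (0.637 ± 0.350). Ctnna3 held 29 to 202 reads per library, and its log2 CPM had a Pearson r of 0.85 over the 24 libraries with the mean of 10 oligodendrocyte markers and of 0.039 with the excitatory neuron markers. That is a description over libraries that share dissection and depth, and the next highest r with the oligodendrocyte markers was 0.64, for Wwox.

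**Figure D1:**
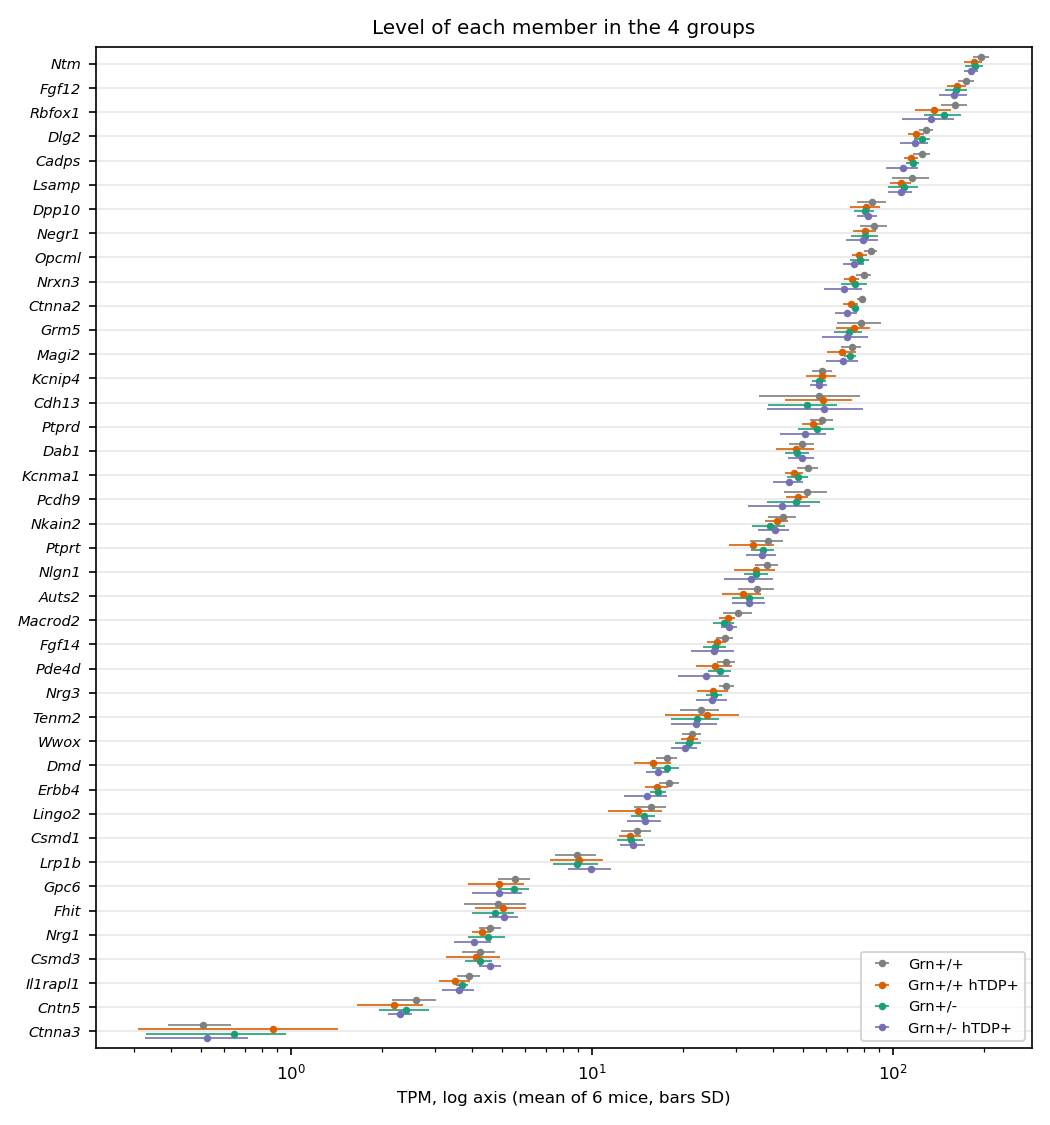
Level of each of the 41 members in TPM (log axis) in the 4 groups; points are means of 6 mice and bars the SD. Members span from 0.637 TPM (Ctnna3) to 187 TPM (Ntm), and for no member do the mice with and without the transgene lie apart in either Grn genotype.

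The spread between mice of a group, as the biological coefficient of variation, had a median of 0.102 over the members, against 0.0898 over the 13786 genes in the same range of CPM. It was lowest for Ctnna2, for the neuronal alpha-catenin that ties cadherins to actin (0.0506), and Opcml, another IgLON gene (0.0531). It was highest for Ctnna3 (0.302), for Cdh13, which encodes a cadherin anchored in the membrane by lipid (0.301), for Cntn5 (0.183) and for Fhit, a gene at a common fragile site (0.180). Cdh13 ran from 60.4 to 174 CPM within the nontransgenic Grn+/+ mice alone, so any group difference in it would need to be large to show.

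Because a gene's span need not be the span of the RNA it makes, reads were also sorted by transcript. Over all libraries, 24 of the 41 members had over 90% of their reads assigned to transcripts that span 500 kb or more, 9 had 50% to 90%, and 8 had under 50%. Nrxn3, a presynaptic adhesion receptor gene, had 96.5%, and Erbb4, the neuregulin receptor gene, had 100% of its reads in such transcripts. Members read mostly from short forms were Ptprd, a receptor phosphatase that organises synapses (32.3% in transcripts of 500 kb or more, leading transcript 193 kb), the cyclic AMP phosphodiesterase gene Pde4d (16.5%, leading transcript 50.4 kb), Fgf12 (12.4%, 32.0 kb) and the neuregulin gene Nrg1 (0%, although 2 of its transcripts in the files are that long, leading transcript 195 kb). For Dab1, an adaptor of reelin signalling, the share was 3.10% and the leading transcript spanned 377 kb. Lingo2 (42.5%), Kcnip4 (40.0%, leading transcript 365 kb) and Cadps (0%, leading transcript 451 kb) were also under 50%. Cadps has no transcript of 500 kb or more in the files. Salmon assigns reads shared between transcripts by a model, so these are estimates.

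Dmd and Nrxn3 are examples of genes with reads at more than 1 start. In Dmd an internal start gives short dystrophin forms, and in Nrxn3 an internal start gives the short β-neurexins beside the long α-neurexins of several upstream starts. The windows below are from RefSeq (GRCm38.p6, plus strand, 5′ to 3′). Each holds 250 bases before the start in lower case and the first 50 bases from it in capitals. They are shown because reads of a gene were divided between them; for Nrxn3 they are the start of its leading transcript, Nrxn3-205, and the β start. Of the members, 31 had 1 or more windows in that table (53 windows), and 10 had none.
Dmd upstream start, chrX:82948620-82948919: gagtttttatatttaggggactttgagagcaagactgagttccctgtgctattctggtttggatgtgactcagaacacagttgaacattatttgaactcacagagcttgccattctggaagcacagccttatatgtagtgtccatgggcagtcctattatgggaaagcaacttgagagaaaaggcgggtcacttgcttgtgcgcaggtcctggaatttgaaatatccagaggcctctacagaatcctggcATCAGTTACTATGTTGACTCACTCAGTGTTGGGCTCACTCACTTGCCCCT
Dmd internal start, chrX:85048045-85048344: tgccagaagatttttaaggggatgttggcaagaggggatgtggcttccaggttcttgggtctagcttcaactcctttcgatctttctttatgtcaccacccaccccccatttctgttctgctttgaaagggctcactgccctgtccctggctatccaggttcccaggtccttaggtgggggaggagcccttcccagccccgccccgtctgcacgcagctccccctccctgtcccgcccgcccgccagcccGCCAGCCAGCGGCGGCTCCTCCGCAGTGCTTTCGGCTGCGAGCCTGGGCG
Nrxn3-205 start, chr12:88794254-88794553: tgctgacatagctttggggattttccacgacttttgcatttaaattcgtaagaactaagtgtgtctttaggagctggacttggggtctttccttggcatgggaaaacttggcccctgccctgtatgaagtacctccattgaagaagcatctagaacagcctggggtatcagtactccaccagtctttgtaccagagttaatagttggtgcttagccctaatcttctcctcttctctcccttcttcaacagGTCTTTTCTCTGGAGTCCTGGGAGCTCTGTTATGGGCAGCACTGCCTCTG
Nrxn3 β start, chr12:89812233-89812532: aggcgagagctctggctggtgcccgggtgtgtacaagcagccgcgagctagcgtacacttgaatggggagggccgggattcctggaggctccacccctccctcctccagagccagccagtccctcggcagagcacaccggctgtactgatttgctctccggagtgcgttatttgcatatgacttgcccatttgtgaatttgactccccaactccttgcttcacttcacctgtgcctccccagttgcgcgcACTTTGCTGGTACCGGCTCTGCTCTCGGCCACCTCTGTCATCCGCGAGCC
The bases just before the Nrxn3-205 start are a run rich in C and T that ends in AG, as introns end, and whether transcription begins there was not tested. The internal Dmd window and the Nrxn3 β window had 62.7% G and C with 14 CG pairs and 60.7% with 16, against 45.7% with 2 and 47.3% with 2 at the upstream Dmd start and the Nrxn3-205 start. The table's remaining Nrxn3 window, around 88953390, had 47.7% with 6. The median over all 32851 windows of the table was 52.7% with 7 CG pairs, and over the members' windows 56.3% with 12.

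Transcripts within 300 bases of the internal Dmd start held 27.9 ± 3.74% of the gene's reads (SD, n = 6) in Grn+/+:hTDP- mice and 28.2 ± 5.34% in Grn+/+:hTDP+ mice. Grn+/- mice had 29.3 ± 3.71% without and 35.8 ± 13.1% with hTDP. The ranges of the 4 groups overlapped, and replicate 1 of the last group was highest, at 60.8%. The upstream start of Dmd, whose main transcript Dmd-203 spans 2257 kb, held 67.7 ± 8.0% over the 24 libraries. In Nrxn3 the start of Nrxn3-205 at 88794504 held 63.5 ± 3.16% of the reads. Transcripts that begin further upstream, Nrxn3-208, Nrxn3-213 and Nrxn3-204 (from 88722888 to 88723109, not in the window table), held 13.9%, 12.7% and 2.95% of the reads of all libraries. Nrxn3-208 and Nrxn3-213 are annotated as nonsense-mediated decay and Nrxn3-204 as retained intron, not as protein coding. The start at 88953390 held 4.44 ± 0.879% and the β start, the least used of the 3 starts with a window, 2.08 ± 0.408%.

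**Figure D2:**
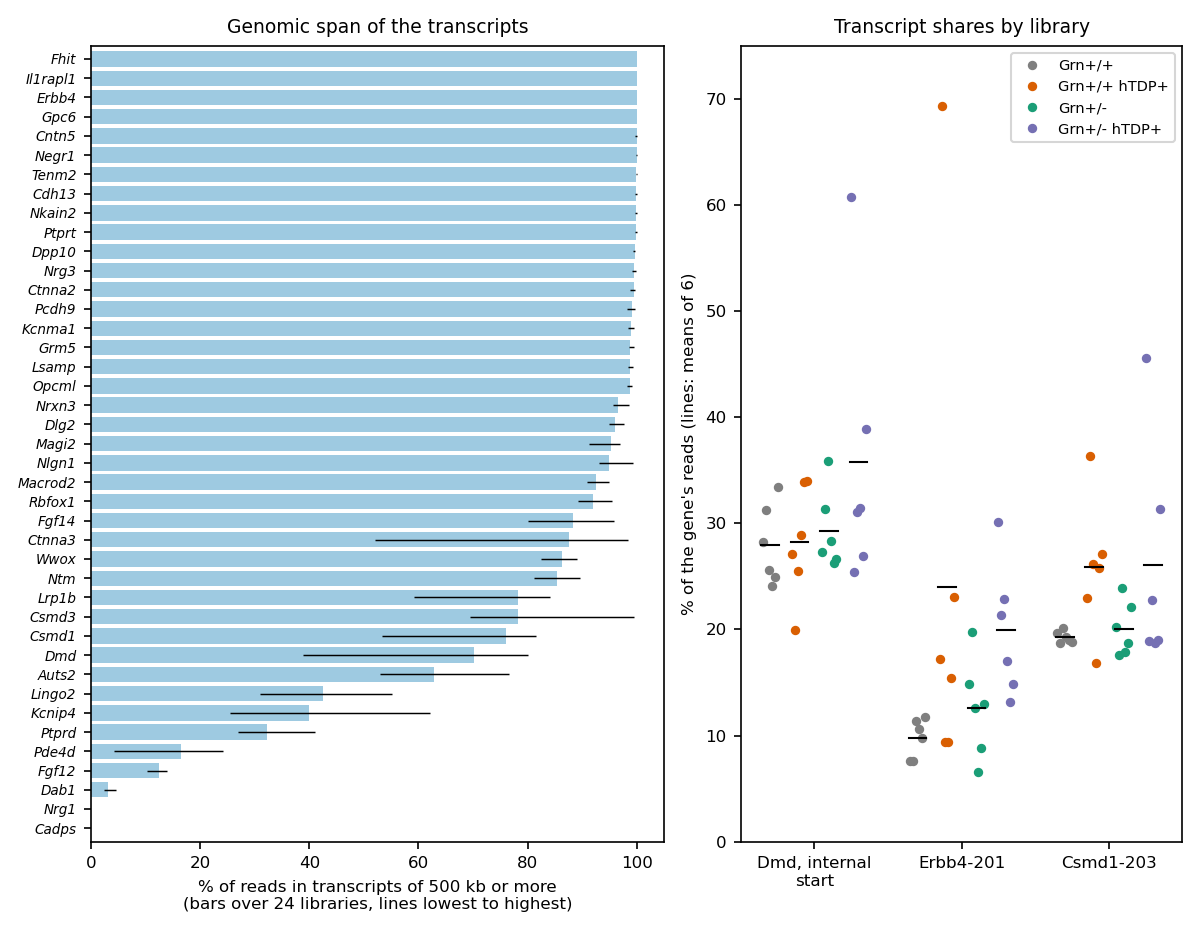
Left, the percentage of each member's reads assigned to transcripts spanning 500 kb or more (bars over the 24 libraries, lines from the lowest to the highest library). Right, the percentage of a gene's reads at the internal start of Dmd and in Erbb4-201 and Csmd1-203, 1 point per mouse with group means as lines; the highest points are Grn+/+:hTDP+ replicate 2 for Erbb4-201 (69.3%) and Grn+/-:hTDP+ replicate 1 for the others (60.8% and 45.5%).

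The transgene moved no member past the threshold. Averaged over both Grn genotypes, 0 of 41 members were called by edgeR's quasi-likelihood test at an adjusted p under 0.05, where 20 of 18239 genes were called (0.11%). DESeq2 and limma voom also called 0 members. At an unadjusted p under 0.05 there were 7 members, all lower, against 7.86% of all genes in either direction and 4.24% lower. Most members had an estimate just below 0: 31 of 41, with a median log2 change of −0.049 (0.967-fold), beside 48.4% below 0 and a median of 0.0031 over all tested genes. The estimates ran from −0.16 (Gpc6, a glypican gene) to 0.14 (Cdh13). The 95% interval excluded a 20% loss for 39 of the 41 and excluded a 2-fold loss for all 41. Transgenic and nontransgenic mice overlapped in all 41 members (0.0329% of all genes had no overlap). Without the 2 libraries that stand apart, a setting chosen after seeing the data, 32 members were below 0 with a median of −0.032. In that setting 2 members had an unadjusted p under 0.05, with no share of all genes given beside them.

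The member of smallest p was Ctnna2 (chromosome 6, 76881637 to 77979699). In Grn+/+ mice it measured 143, 153 and 158 CPM (lowest, median and highest of 6) without the transgene and 135, 144 and 150.0 CPM with it. Grn+/- mice measured 139, 147 and 149.7 CPM without and 126, 140.3 and 148 CPM with it. Both transgenic groups overlapped the nontransgenic mice of the same Grn genotype. The average log2 change was −0.075 (SE 0.026, edgeR adjusted p = 0.540), or 0.950-fold. The 5 genes above 10 CPM whose log2 CPM followed Ctnna2 most closely over the 24 libraries were Stim1, Plekhm3, Napb, Wdr37 and Syt1, with a Pearson r of 0.824 to 0.856 over 9812 genes compared; their spans ran from 38.5 to 513 kb.

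Nrxn3 (chromosome 12, 88722876 to 90334935) came next. The lowest, median and highest mice stood at 225, 243 and 256 CPM in Grn+/+:hTDP- and at 209, 220.4 and 233 CPM in Grn+/+:hTDP+. The same values were 196, 222 and 258 CPM in Grn+/-:hTDP- and 193, 219 and 245 CPM in Grn+/-:hTDP+. In both Grn genotypes the ranges with and without the transgene overlapped, with the Grn+/+:hTDP- mice highest by median. The average log2 change was −0.098 (SE 0.040, edgeR adjusted p = 0.589). Kcnma1 (chromosome 14, 23289431 to 24014491), the gene of the large-conductance calcium-activated potassium channel, followed. Grn+/+ mice had 273, 292 and 342 CPM (lowest, median and highest) without and 264, 272 and 298 CPM with hTDP. Grn+/- mice had 260.5, 277 and 315 CPM without and 249.7, 259 and 298 CPM with hTDP. Again no pair of groups was apart. The average log2 change was −0.089 (SE 0.039, edgeR adjusted p = 0.613).

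Of the 6 members of smallest p, 2 encode postsynaptic scaffolds. Magi2 (chromosome 5, 19227036 to 20704792), a scaffold with PDZ and WW domains, measured 151, 163 and 172 CPM (lowest, median and highest) in Grn+/+:hTDP- and 134, 149 and 165 CPM in Grn+/+:hTDP+ mice. Among Grn+/- mice it measured 152, 154 and 169 CPM without and 130.1, 151 and 165 CPM with hTDP. Its average log2 change was −0.093 (SE 0.041, edgeR adjusted p = 0.613). Dlg2 (chromosome 7, 90476672 to 92449247) was the member with most reads, 21841 to 39423 per library. The lowest, median and highest mice stood at 407, 428 and 456 CPM in Grn+/+:hTDP- and at 373, 405 and 427 CPM in Grn+/+:hTDP+. The same values were 393, 420.3 and 454 CPM in Grn+/-:hTDP- and 354, 409 and 440.3 CPM in Grn+/-:hTDP+. Its average log2 change was −0.072 (SE 0.033, edgeR adjusted p = 0.627), and −0.044 without the 2 libraries that stand apart. Cadps (chromosome 14, 12372563 to 12823079) encodes a priming factor of dense-core vesicles. Grn+/+ mice had 272, 306 and 338 CPM (lowest, median and highest) without and 263, 283 and 314 CPM with hTDP. Grn+/- mice had 273, 285 and 333 CPM without and 219, 275 and 299.8 CPM with hTDP. Its average log2 change was −0.11 (SE 0.051, edgeR adjusted p = 0.629). In each of these 3 genes the groups overlapped, with the Grn+/-:hTDP+ group reaching lowest. The last of the 7 members with an unadjusted p under 0.05 was Dmd, at −0.14 (SE 0.068, edgeR adjusted p = 0.634).

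**Figure D3:**
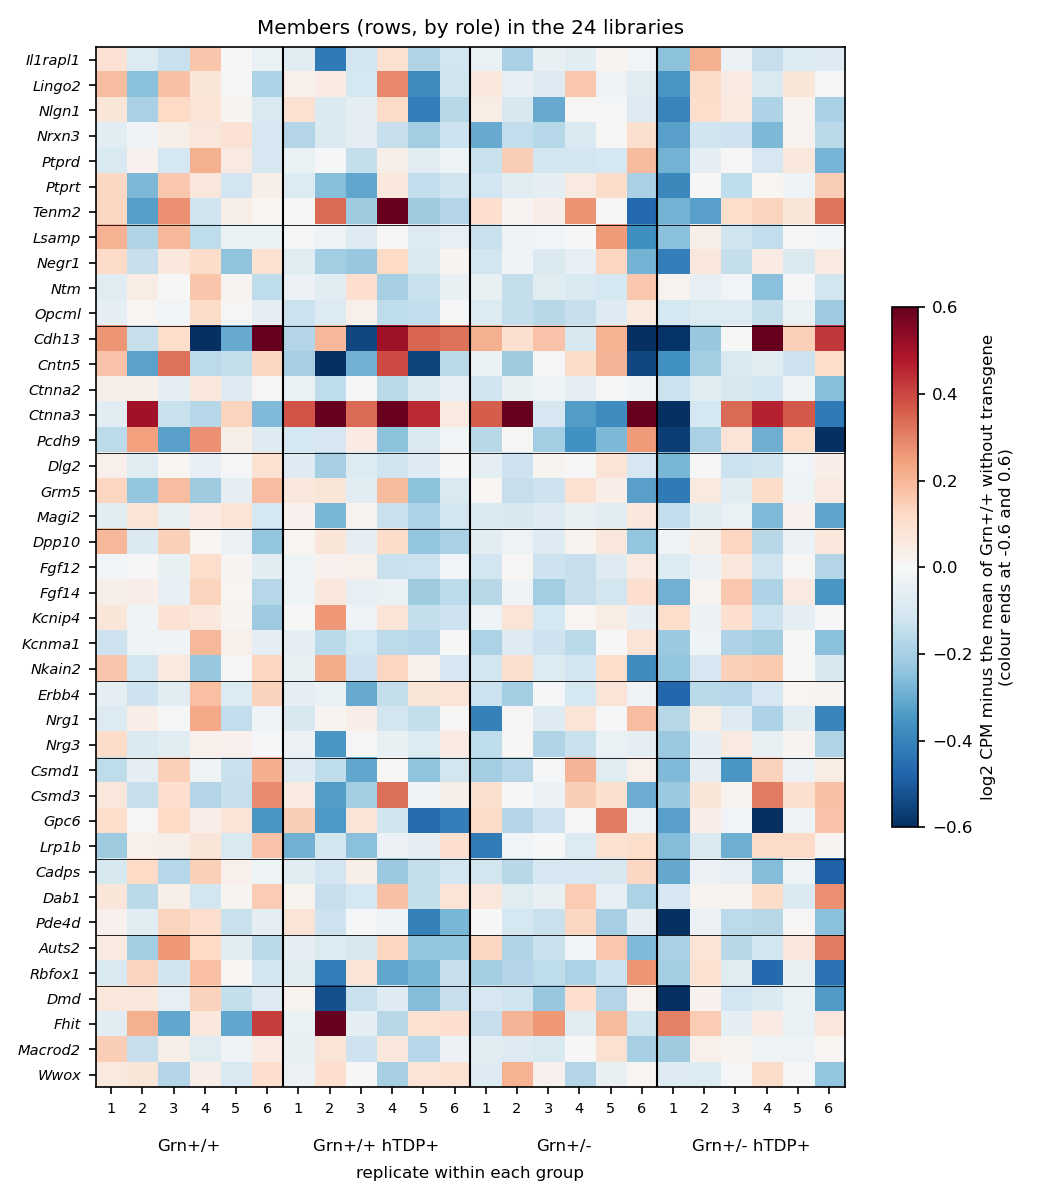
Log2 CPM of each member (rows, ordered by role, lines between roles) in each of the 24 libraries (columns), minus the mean of the 6 Grn+/+:hTDP- mice; colours end at −0.6 and 0.6. Grn+/-:hTDP+ replicate 1 is below that mean in 38 of 41 members, and Ctnna3 and Cdh13 vary most.

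By role, the median of the average log2 changes with the transgene ran from −0.11 (vesicle priming and signalling) to −0.0069 (ion channels). The 7 trans-synaptic adhesion genes and synapse organisers (Nrxn3, Nlgn1, Ptprd, Ptprt, Il1rapl1, Tenm2, Lingo2) had 6 estimates below 0 and a median of −0.064. All 4 IgLON genes (Ntm, Opcml, Lsamp, Negr1) were below 0, between −0.050 and −0.039. The 5 cadherin, catenin and contactin genes had 3 below 0 and a median of −0.075, and the 3 postsynaptic genes (the glutamate receptor gene Grm5 with Dlg2 and Magi2) had 2 below 0. The 6 ion channel genes and partners had 3 below and 3 above, with a median of −0.0069. The neuregulins Nrg1 and Nrg3 and their receptor Erbb4 were all below 0, with a median of −0.070. Among the genes of large extracellular proteins (Csmd1, Csmd3, Lrp1b, Gpc6) 3 of 4 were below 0 (median −0.080), among Cadps, Dab1 and Pde4d 2 of 3, and both Rbfox1 and Auts2, a gene for a chromatin-linked regulator, were below 0. The fragile-site genes Fhit, Wwox and Macrod2 with Dmd had 3 of 4 below 0 and a median of −0.014. The lowest estimates after Gpc6 were those of Dmd (−0.14), Cntn5 (−0.14), Rbfox1 (−0.14) and Pde4d (−0.12), with wider errors than Ctnna2 (SE 0.068, 0.11, 0.071 and 0.063 against 0.026). None of these groups held a called member.

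In Grn+/+ mice, 34 of 41 members had an estimate below 0, with a median log2 change of −0.076 (0.949-fold), beside 49.7% and 0.00065 over all genes. Of the members 0 were called (edgeR quasi-likelihood, against 0.0329% of all genes; DESeq2 and limma voom also 0) and 3 had an unadjusted p under 0.05, against 7.83% of all genes: Nrxn3 at −0.13 (SE 0.057, edgeR adjusted p = 0.608), Ctnna2 at −0.083 (SE 0.037, edgeR adjusted p = 0.618) and Opcml at −0.082 (SE 0.039, edgeR adjusted p = 0.636). Opcml (chromosome 9, 27790775 to 28925410) measured 245, 254 and 275 CPM (lowest, median and highest of 6) without and 229.7, 237 and 260.3 CPM with the transgene, so the ranges overlapped, as they did in all 41 members (0.504% of all genes had no overlap). The 95% interval excluded a 20% loss for 34 members and a 2-fold loss for all 41. The range of estimates was −0.23 (Cntn5) to 0.52 (Ctnna3). With those 2 libraries left out, 36 members were below 0 with a median of −0.071, and 1 had an unadjusted p under 0.05. With any 1 library left out, 0 to 6 members did. No share of all genes under that p is given for these settings. The log2 changes without the pair were −0.14 for Nrxn3, −0.071 for Ctnna2 and −0.075 for Opcml.

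Among Grn+/- mice, 25 of 41 members were below 0, with a median log2 change of −0.019 beside −0.00012 over all genes (50.1% below 0). No member was called by edgeR (0.0219% of all genes were), by DESeq2 or by limma voom, and 0 members had an unadjusted edgeR p under 0.05, against 2.38% of all genes. The smallest p-values belonged to Ctnna2, at −0.066 (SE 0.037, edgeR adjusted p = 1), Cadps, at −0.11 (SE 0.072, edgeR adjusted p = 1), and Pde4d (chromosome 13, 108449948 to 109953461), at −0.13 (SE 0.089, edgeR adjusted p = 1). Pde4d measured 35.7, 38.7 and 44.6 CPM without and 26.8, 36.6 and 41.3 CPM with the transgene, with overlap, as in all 41 members (0.192% of all genes had no overlap). Without the 2 libraries that stand apart its log2 change was −0.060, and 22 of 41 members were below 0 with a median of −0.0095. Of the 41 members, 23 were below 0 in both Grn genotypes and 5 above 0 in both. Within mice of 9.44 months, the median difference of the members in Grn+/+ mice was −0.077 (3 against 3 mice, 33 below 0) and at 10.07 months −0.047 (3 with and 2 without the transgene, 29 below 0). Over all genes the median difference of these mice was 0.010 at 9.44 months and −0.014 at 10.07 months. For Grn+/- mice that of the members was 0.039 at 9.44 months, beside −0.011 over all genes, with 2 mice against 1.

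**Figure D4:**
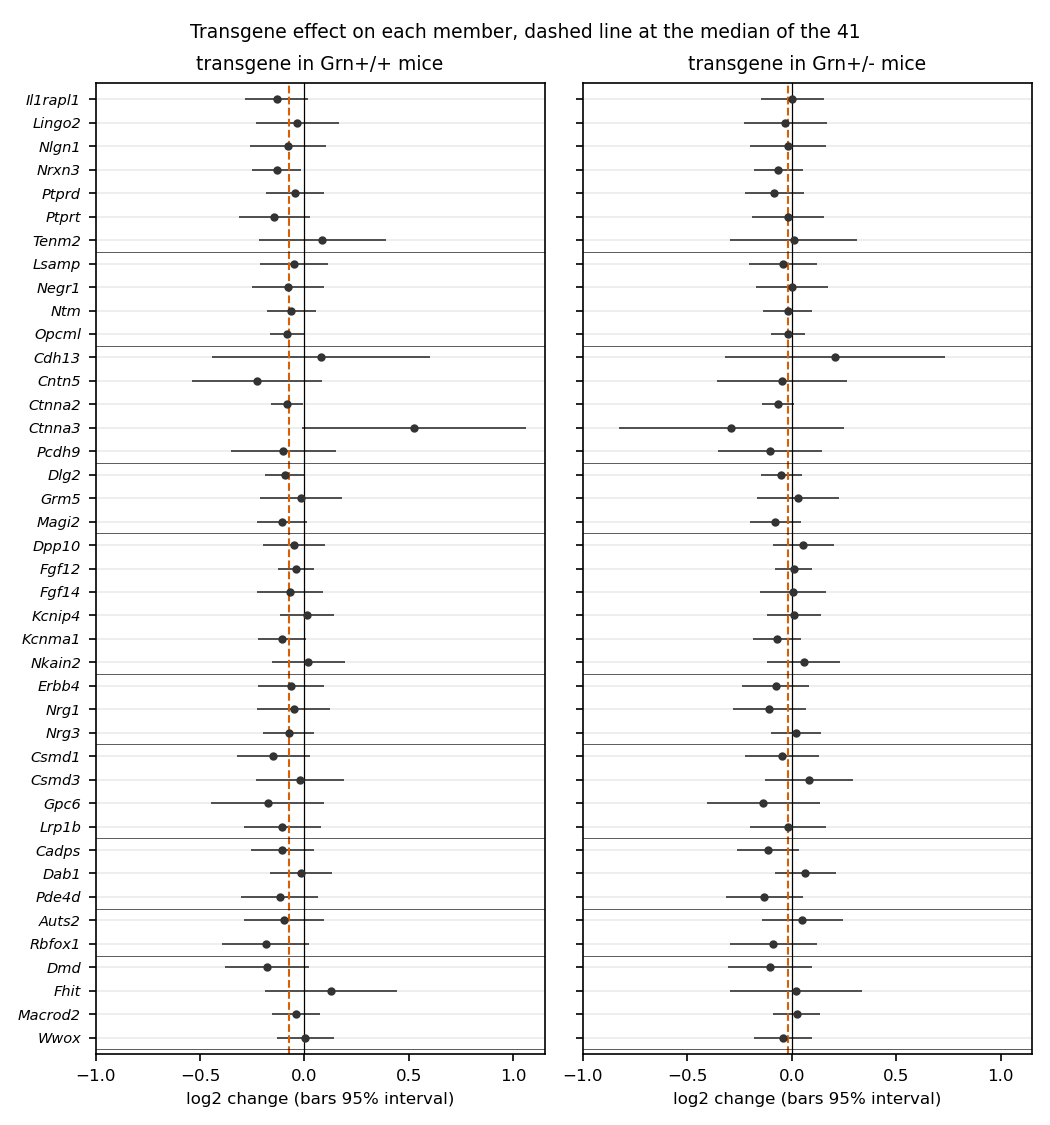
Log2 change of each member with the transgene, with its 95% interval, in Grn+/+ mice (left) and Grn+/- mice (right), ordered by role; the dashed lines mark the medians of the 41 members, −0.076 and −0.019. All intervals exclude a log2 change of −1, and the widest belongs to Ctnna3.

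The difference between the transgene effects was tested as an interaction, the effect in Grn+/- minus that in Grn+/+ mice, the question the series is about. No member was called (edgeR; 0 of 18239 genes were called, 0%; DESeq2 called 3 genes and limma voom 0, none of them members). The count of members below 0 was 11 of 41 with a median of 0.046, beside 48.9% and 0.0025 over all genes. Without the 2 libraries that stand apart the count was 4 and the median 0.062. At an unadjusted p under 0.05 there was 1 member, Ctnna3, against 2.38% of all genes. There were 0 members when those libraries were left out, with no share of all genes given for that setting. The median SE of an interaction was 0.12, so a difference of the size of the medians is within the error of each single gene. Il1rapl1 (0.13, SE 0.10, edgeR adjusted p = 1) and Nrg3 (0.096, SE 0.083, edgeR adjusted p = 1) had the next smallest p-values.

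Ctnna3 (chromosome 10, 63430098 to 65003667) measured 0.727, 0.816 and 1.25 CPM (lowest, median and highest of 6) in Grn+/+:hTDP- and 0.911, 1.17 and 2.07 CPM in Grn+/+:hTDP+ mice. Grn+/- mice measured 0.671, 0.975 and 1.97 CPM without and 0.470, 0.964 and 1.21 CPM with hTDP. The log2 change was 0.52 in Grn+/+ and −0.29 in Grn+/- mice, and their difference −0.81 (SE 0.37, edgeR adjusted p = 1). Beside this stood the mean log2 level of the 10 oligodendrocyte markers. Relative to Grn+/+:hTDP- mice it was 0.70 ± 0.47 in Grn+/+:hTDP+, 0.27 ± 0.82 in Grn+/-:hTDP- and 0.15 ± 0.64 in Grn+/-:hTDP+ mice (SD, n = 6). With that level as a covariate the Ctnna3 difference was −0.30. It was −0.57 without the 2 libraries that stand apart, of which Grn+/+:hTDP+ replicate 2 was the highest mouse of its group in Ctnna3. The markers' summed level was 1048 to 2693 TPM in Grn+/+:hTDP-, 1754 to 3694 TPM in Grn+/+:hTDP+, 1127 to 5081 TPM in Grn+/-:hTDP- and 997 to 2777 TPM in Grn+/-:hTDP+ mice, and none of the 10 was at 0. For Ctnna3, singled out after its values were seen, the most alike genes over the libraries were Kif13a, Trf, Slc44a1, Nbas and Galnt6 (Pearson r of 0.885 to 0.902 over 9813 genes compared). In bulk tissue, fewer cells of a type and less RNA per cell cannot be told apart.

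No member was called by Grn genotype. Without the transgene, 38 of 41 members were below 0 in Grn+/- mice, with a median log2 change of −0.057, beside 46.1% and 0.0085 over all genes; 0 were called (0.011% of all genes; DESeq2 and limma voom 0 members) and 1, Opcml at −0.091 (SE 0.039, edgeR adjusted p = 1), had an unadjusted p under 0.05, against 3.41% of all genes. Opcml measured 227, 236 and 265 CPM in these mice, overlapping the Grn+/+:hTDP- mice, as in all 41 members (0.395% of all genes had no overlap). Nrxn3 (−0.096, SE 0.057, edgeR adjusted p = 1) and Nrg3 (−0.092, SE 0.059, edgeR adjusted p = 1) followed. This comparison and the transgene comparison in Grn+/+ mice share the Grn+/+:hTDP- mice as controls, and the members' mean level was highest in that group. With the transgene, 25 of 41 were below 0 with a median of −0.015 (all genes 48.6% and 0.0027); 0 were called (0.00548% of all genes), 0 had an unadjusted edgeR p under 0.05 (3.37% of all genes) and DESeq2 and limma voom called 0. The groups overlapped in all 41 members (0.104% of all genes had no overlap). Leaving out the 2 libraries that stand apart gave 16 below 0 and a median of 0.033, and a Ctnna3 change of −0.26 in place of −0.53. The smallest p-values there were those of Ctnna3 (−0.53, SE 0.26, edgeR adjusted p = 0.989), Cadps (−0.083, SE 0.072, edgeR adjusted p = 0.989) and Pcdh9, a protocadherin gene (−0.13, SE 0.12, edgeR adjusted p = 0.989).

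Averaged over both transgene states, 33 of 41 members were below 0 in Grn+/- mice, with a median of −0.038 (all genes 46.5% and 0.0055). None was called (0.0219% of all genes; DESeq2 and limma voom 0) and 1 had an unadjusted edgeR p under 0.05 (4.93% of all genes), Opcml at −0.060 (SE 0.028, edgeR adjusted p = 0.926). The same 2 libraries left out, 24 members were below 0 with a median of −0.011. Mice with both changes were set against mice with neither. Here 35 of 41 members were below 0, with a median of −0.073 (0.951-fold; all genes 45.1% and 0.014). Again 0 were called (0.0768% of all genes; DESeq2 and limma voom 0), and 7, all lower, had an unadjusted edgeR p under 0.05, against 9.4% of all genes in either direction and 5.54% lower. There were 29 below 0, with a median of −0.046, when the 2 libraries that stand apart were left out. The groups overlapped in all 41 members (0.68% of all genes had no overlap). Ctnna2 was −0.11 (SE 0.037, edgeR adjusted p = 0.379), Nrxn3 −0.16 (SE 0.057, edgeR adjusted p = 0.379) and Opcml −0.11 (SE 0.039, edgeR adjusted p = 0.379). By sex, 19 of 41 were lower in females (50.7% of all genes), the median was 0.0018, 0 were called (0.0713% of all genes; DESeq2 and limma voom 0) and 0 had an unadjusted edgeR p under 0.05 (5.99% of all genes). Fgf12, Opcml and Ctnna3 had the smallest p-values by sex, with log2 differences, female minus male, of 0.046, 0.054 and 0.35.

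All tested genes were sorted by span, members included. Of the 58 tested genes of 1000 kb or more, 30 were members. Sorted by gene span, the median log2 change in Grn+/+ mice went from 0.029 for genes under 10 kb, through −0.017 at 30 to 100 kb and −0.047 at 300 to 500 kb, to −0.071 at 500 to 1000 kb and −0.051 above 1000 kb. The 181 other genes of 500 kb or more had a median of −0.064, with 75.7% below 0, beside −0.076 and 82.9% for the members. Among Grn+/- mice the bins ran from 0.019 to −0.031, and the other long genes had a median of −0.038, lower than that of the members. Of the other long genes, those of smallest p in the average were Vps13b (−0.13), Dscam (−0.11), Lrba (−0.13), Sox6 (−0.13) and Nbea (−0.12), none of them called. No chance test of these medians was made.

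Genes of long mRNA also had medians below 0. A length index was taken for each library as the median centred log2 level of 578 genes with mRNA over 7 kb minus that of 3258 genes with mRNA under 2 kb, members left out. It was 0.0011 ± 0.065 (SD, n = 6) in Grn+/+:hTDP-, −0.11 ± 0.079 in Grn+/+:hTDP+, −0.058 ± 0.051 in Grn+/-:hTDP- and −0.13 ± 0.12 in Grn+/-:hTDP+ mice, with overlap between all groups. The library with the lowest index, Grn+/-:hTDP+ replicate 1 at −0.36, was also the lowest in the members. Next by index were Grn+/+:hTDP+ replicates 2 (−0.216) and 5 (−0.211). Counted from the lowest, they ranked 10 and 2 in the members (−0.051 and −0.14). The members' mRNA had a median length of 4.49 kb, against 2.51 kb over tested genes. Within genes of 4 to 6 kb of mRNA and over 5 CPM, the median average log2 change was −0.029 for 1513 genes spanning under 100 kb, −0.055 for 57 other genes of 500 kb or more and −0.049 for 13 members. At 2 to 4 kb the values were −0.0011 (4318 genes), −0.037 (39) and −0.030 (14 members). With the index as a covariate, a setting chosen after seeing the data, 22 of 41 members were below 0 in the average transgene effect with a median of −0.0056; in Grn+/+ mice 24 were below 0 with a median of −0.0091. Because the index moved with the groups, this covariate also takes up any effect of the genotypes on long mRNA.

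**Figure D5:**
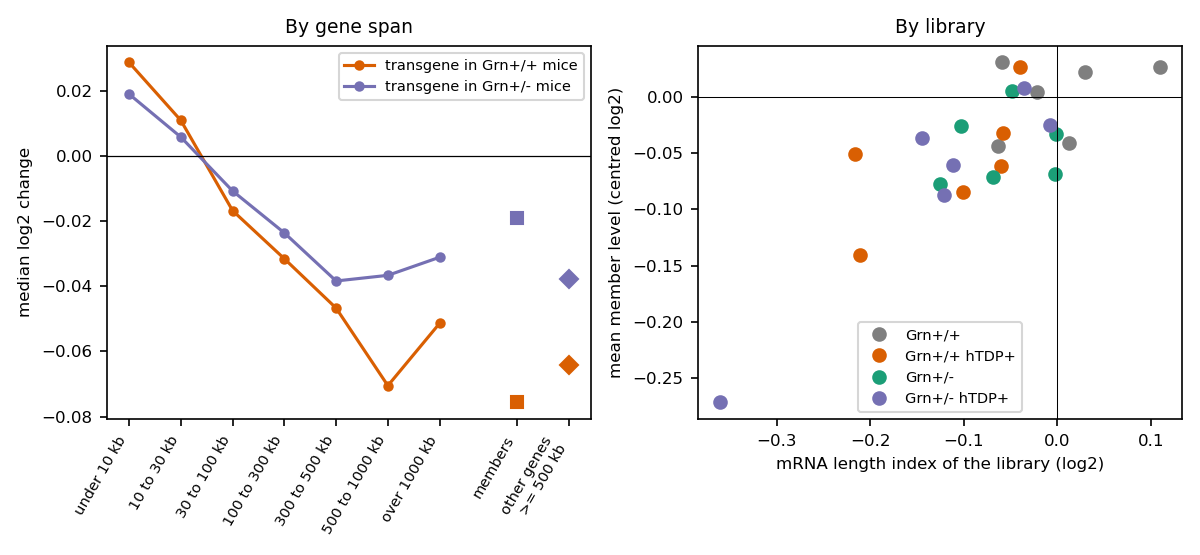
Left, median log2 change with the transgene over all tested genes sorted by span, members included. Squares at the right are the members alone and diamonds the other genes of 500 kb or more. Right, mean centred log2 level of the members against the mRNA length index of each of the 24 libraries; the point at the lower left is Grn+/-:hTDP+ replicate 1 (index −0.36, members −0.27).

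Other genes of the same families, and genes of other cells, were read from lists. Of 72 tested paralogs and partners of the members, such as the teneurins and the latrophilins, 0 were called in the average transgene effect, 59 were below 0 and 13 above, and the median was −0.042. Their median span was 201 kb. Those of smallest p were Utrn, the dystrophin paralog utrophin, at −0.13 (63.6 ± 6.22 CPM in nontransgenic and 57.9 ± 3.83 CPM in transgenic mice, SD, n = 12 each), Erbb2, a co-receptor of Erbb4, at 0.22 (2.27 ± 0.266 and 2.63 ± 0.516 CPM), and Adgrl1, a latrophilin gene, at −0.075 (735 ± 34.9 and 698 ± 40.7 CPM). Of 32 short neuronal genes, 20 were below 0 with a median of −0.011 and 0 called. By comparison, 25 were below 0 in Grn+/+ mice (median −0.021), 15 in Grn+/- mice (0.0016) and 26 by Grn genotype without the transgene (−0.023). Their median span was 13.7 kb, although Syt1 on that list spans 513 kb. Of 20 long genes of glia and vessels, 10 were below 0 with a median of −0.0037, from 0.054 in Grn+/+ to −0.077 in Grn+/- mice, 0 called.

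Markers of other cells were read beside the members, and no marker of the lists named here was called. With the transgene in Grn+/+ mice, where 34 of 41 members were below 0, the excitatory neuron markers had 7 of 8 below 0 (median −0.10). All 9 mural and meningeal markers (0.34), all 10 oligodendrocyte markers (0.70), all 5 blood markers (0.55) and all 5 tested choroid plexus and ependyma markers (0.99) were above 0. So were 7 of 8 striatal neuron markers (0.088), 6 of 7 endothelium (0.066), 6 of 6 oligodendrocyte precursor (0.087) and 5 of 8 astrocyte markers (0.021). Inhibitory neuron markers had 5 of 8 below 0 (−0.022), microglia markers 5 of 8 (−0.021) and tested olfactory bulb markers 4 of 5 (−0.20). By Grn genotype without the transgene, where 38 of 41 members were below 0, 6 of 8 excitatory markers were below 0 (median −0.070). There the mural and meningeal (9 of 9, 0.28), oligodendrocyte (10 of 10, 0.35), blood (5 of 5, 1.26), astrocyte (8 of 8, 0.092) and microglia markers (7 of 8, 0.12) were above 0. Inhibitory and striatal neuron markers in that comparison each had 4 of 8 below 0 and 4 above (0.0029 and 0.025). Also above 0 were 6 of 6 oligodendrocyte precursor (0.15) and 6 of 7 endothelium markers (0.072). Of the tested choroid plexus and ependyma markers 3 of 5 were above 0 (0.089), as were 3 of 5 tested olfactory bulb markers (0.12). In Grn+/- mice with against without the transgene, 5 of 8 excitatory markers were below 0 (−0.029), 10 of 10 oligodendrocyte markers were below 0 (−0.17) and 9 of 9 mural and meningeal markers above 0 (0.082). Inhibitory neuron markers had 6 of 8 below 0 (−0.018) and striatal neuron markers 6 of 8 above 0 (0.077). Also below 0 were 6 of 6 oligodendrocyte precursor (−0.082), 6 of 8 microglia (−0.051) and 5 of 8 astrocyte markers (−0.026). So were 4 of 5 tested choroid plexus and ependyma markers (−0.25). Above 0 were 7 of 7 endothelium (0.052), 4 of 5 blood (0.071) and 5 of 5 tested olfactory bulb markers (0.33).

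Summed over each list, the excitatory markers measured 2961 to 3170.4, 2570.3 to 3094, 2876 to 3220.2 and 2727 to 3145 TPM per mouse, given for the Grn+/+ groups without and with hTDP and then for the Grn+/- groups without and with it. In the same order the mural and meningeal markers measured 288 to 1724, 639 to 2358, 459.6 to 1511 and 363 to 2454 TPM and the blood markers 61.8 to 183, 105 to 296, 65.03 to 859 and 76.0 to 444 TPM. Choroid plexus and ependyma markers measured 87.7 to 140.4, 107 to 181, 95.3 to 183 and 89.3 to 142 TPM, astrocyte markers 1204 to 1288, 1192 to 1344, 1256 to 1503 and 1185 to 1519 TPM and microglia markers 313 to 385, 272 to 368, 314 to 454 and 303 to 393 TPM. The ranges of the groups overlapped on each list, and no marker was at 0 in every library. Over the 24 libraries, the log2 level of a member had a Pearson r with the mean of the excitatory markers from −0.651 (Tenm2) to 0.843 (Rbfox1). For the 7 members with an unadjusted edgeR p under 0.05 in the average transgene effect, r was positive. It was 0.830 for Cadps, 0.824 for Magi2, 0.767 for Ctnna2, 0.664 for Kcnma1, 0.528 for Nrxn3, 0.441 for Dmd and 0.122 for Dlg2. For Opcml it was 0.793. The sign differed between members, and Dab1 (−0.579), Cdh13 (−0.506), Grm5 (−0.436) and Csmd3 (−0.402) were among those with a negative r. These are descriptions over libraries that share dissection and depth. A fit with the excitatory markers as a covariate was not run. With the oligodendrocyte marker level as a covariate, 30 members were below 0 with the transgene in Grn+/+ mice (median −0.066). The main values were 34 and −0.076. In that fit 27 were below 0 in Grn+/- mice (−0.026, main −0.019) and 30 in the average transgene effect (−0.051, main −0.049). By Grn genotype without the transgene there were 33 (−0.047), against 38 (−0.057) in the main fit.

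Splicing of the members was read as usage, how the estimated reads of a gene divide among its transcripts. Of the 407 member transcripts in the files, 97 held at least 5% of their gene, and 32 members could be tested beside 7877 genes in all. No member was called in the average transgene effect (edgeR likelihood-ratio fit; 0.152% of genes were called), in either Grn genotype alone (0.0889% and 0.0508%), in the interaction (0.0127%) or in the average Grn effect (0.0381%), and a limma fit and a quasi-likelihood fit also called 0 members. In the average transgene effect 2 members had an unadjusted edgeR p under 0.05, against 3.72% of genes. In Grn+/+ mice there was 1 (2.82% of genes), and there were 0 in Grn+/- mice (1.28%), the interaction (1.28%) and the average Grn effect (1.46%). By limma the average transgene effect had 11 such members, where 17.2% of genes passed.

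Erbb4 (chromosome 1, 68032186 to 69108059) had the smallest p (edgeR adjusted p = 0.165). Its second transcript, Erbb4-201, held 11.2 ± 3.66% of the reads (SD, n = 12) in nontransgenic mice, from 6.56% to 19.7%, and 21.9 ± 16.1% in transgenic mice, from 9.37% to 69.3%. The highest value is Grn+/+:hTDP+ replicate 2. Without the 2 libraries that stand apart the transgenic mean was 16.4 ± 4.99% and the gene's edgeR adjusted p was 0.805. Both Erbb4 transcripts span about the whole gene (1076 kb), so both count as long forms. Csmd1 (chromosome 8, 15892537 to 17535586) was next (edgeR adjusted p = 0.840). Its retained-intron transcript Csmd1-203, which spans 92.3 kb, held 19.7 ± 1.80% in nontransgenic and 25.9 ± 8.40% in transgenic mice, and 22.9 ± 4.62% without the same libraries. For Kcnip4, a potassium channel partner gene, the short transcript Kcnip4-205 held 52.8 ± 6.31% and 57.0 ± 8.36% (edgeR adjusted p = 1). Over the 41 members, 92.9% of reads lay in protein-coding transcripts, and retained-intron transcripts held 0.833 ± 0.0742% in nontransgenic and 0.895 ± 0.0985% in transgenic mice (SD, n = 12).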

How the data were processed

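Frontal cortex RNA of 24 mice was read as 1 quantification file per mouse. STAR, SAMtools, Salmon and DESeq2 are listed in the submitters' processing notes, with no role or version. Expected counts (estimated reads per transcript) and TPM were deposited by the authors in Salmon's format, per the file headers, with each library's effective transcript lengths. No source used here states their genome build or annotation, and 92.4% of transcripts matched GENCODE M21. The protocol describes directional and non-directional preparation, so antisense reads may not be separable.

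Estimated counts were summed per gene and rounded, and 18239 genes passed edgeR's expression filter. The model was genotype group plus sex over all 24 libraries (edgeR 4.0.16, R 4.3.3, TMM scaling, quasi-likelihood test, Benjamini-Hochberg adjustment over all tested genes, threshold 0.05, 19 residual degrees of freedom). An SE is the log2 change divided by the root of F. Usage was tested with edgeR's likelihood-ratio fit on transcripts holding at least 5% of their gene. The scripts were tested on simulated data. Named members are the 6 of smallest p in the average transgene effect, the 3 of smallest p in every other comparison and in usage, and the 4 of highest and lowest TPM, others by role. Other genes were named by smallest p among paralogs and partners (3) and among other genes of 500 kb or more. Members and lists were chosen with earlier results of these data known. Alternatives used limma 3.58.1, DESeq2 1.42.0 and sva 3.50.0.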

Additional observations from a re-analysis of the deposited data

Results flagged for a closer look

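In 9 of 76 groups of 6 mice examined, 1 library stood apart from the other 5 by more than 0.625 of the group's range. For independent, normally spread values chance alone does this in about 1 group of 20. The 76 groups share the same libraries. Some of their genes and transcripts were picked by p or by their rise in transgenic mice. The count of 9 therefore cannot be set against that rate. The members' mean log2 level in Grn+/-:hTDP+ replicate 1 was −0.27, and the next lowest mouse of its group was at −0.087. The same library had 2.71% of its reads in retained-intron transcripts, against 1.64% to 2.01% in its group. On that measure Grn+/+:hTDP+ replicate 6 (2.22%) and Grn+/-:hTDP- replicate 3 (2.12%) were also high in their groups. Grn+/+:hTDP+ replicate 2 had the highest Ctnna3 level of its group (2.07 CPM, next 1.33), the lowest Nrg3 level (36.4 CPM, next 43.9) and the highest Erbb4-201 share (69.3%, next 23.0%). Grn+/-:hTDP- replicate 6 was highest of its group in Cadps (333 CPM, next 286) and Magi2 (169 CPM, next 157). No member had every transgenic mouse higher in one Grn genotype and lower in the other.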

How the results depend on the processing

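No member was called in any comparison under any alternative run or with any library left out. The interaction had 11 members below 0; the count was 7 among mice of 9.44 and 10.07 months with age as a factor, 4 without Grn+/+:hTDP+ replicate 2 and Grn+/-:hTDP+ replicate 1, and 7 to 14 with 1 library left out (7 without Grn+/-:hTDP+ replicate 1 and without Grn+/+:hTDP- replicate 5). Left-out libraries gave 18 to 30 members below 0 for the Grn genotype with the transgene. That count was 16 without both libraries (main value 25). By sex the count was 11 with surrogate variables, against 19. The median transgene effect in Grn+/- mice ran from −0.064 to 0.015 over the alternatives (main value −0.019). With the mRNA length index as a covariate, chosen after seeing the data, the median in Grn+/+ mice was −0.0091, the Grn genotype without the transgene had 24 members below 0 and both changes against neither had 22. The cause of these moves was not tested. Genes called over the alternatives numbered 3 to 62 in the average transgene effect (main value 20), 1 to 27 in Grn+/+ (6) and 1 to 9 in Grn+/- mice (4), 0 to 3 in the interaction (0), 0 to 6 and 0 to 5 by Grn genotype without (2) and with the transgene (1), 3 to 9 in the average Grn effect (4), 1 to 86 for both changes against neither (14) and 10 to 23 by sex (13). For usage in the average transgene effect 43 genes were called by limma and 4 by the quasi-likelihood fit (12). The smallest adjusted p of a named member under any alternative was 0.0688 (DESeq2), for Ctnna2 in both changes against neither. The count of TG repeats in introns was not run. No paired analysis was possible because the labels give no replicate numbers and numbers here only name mice. Ctnna3 had 29 to 202 reads per library.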
